A study of Mus musculus with 7 samples.

Results

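The 9 genes described here encode enzymes of the tricarboxylic acid (TCA) cycle: Cs, Idh3a, Idh2, Ogdh, Dlst, Suclg1, Fh1, Mdh2 and Mdh1. They were read from every probe set that the array annotation assigns to 1 of these symbols alone, which gave 24 probe sets of the 45037 that are not controls. Measurements came from 7 libraries of D3 cells, an established mouse embryonic stem cell line. In 5 knockout libraries the calreticulin gene Calr had been ablated, and 2 libraries came from wild type cells of the same line. Each library was a pool of 3 or more cultures, and the labels name neither a drug treatment nor a time point. They do not say whether the knockout cells were 1 clone or several, so the tests measure the spread between these libraries only. RNA was hybridised to Affymetrix Mouse 430 2.0 arrays, and each value is a MAS5 signal on a linear scale that the authors had scaled to a common mean per array.

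The TCA cycle runs in the mitochondrial matrix, where it oxidises acetyl groups from pyruvate, fatty acids and amino acids and passes the electrons to the respiratory chain. Its intermediates also leave the mitochondrion as precursors, citrate for lipid synthesis and alpha-ketoglutarate as a cosubstrate of the dioxygenases that demethylate DNA and histones. In mouse embryonic stem cells, which are strongly glycolytic, the level of alpha-ketoglutarate is known to bear on self-renewal. Calreticulin holds calcium and folds glycoproteins in the endoplasmic reticulum, and several dehydrogenases of the cycle are activated by calcium in the matrix.

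The labels were checked first. Calr had signals of 857.8, 1055, 1064, 577.4 and 1006 in knockout libraries 1 to 5, against 12460 and 10840 in wild type libraries, with its brightest probe set (difference -3.68 on the log2 scale, limma adjusted p = 0.00531 over genes; 0.176 without wild type library 1 and 0.136 without wild type library 2). The embryonic stem cell markers were present, with all 12 genes of the list above the array median in every library and sums of 88580 to 120371 in knockout and 89122 to 107332 in wild type libraries. Knockout libraries 2 and 3 stood apart from the rest. Across probe sets this pair had a correlation of 0.985, and neither exceeded 0.902 with a library outside the pair. The 2 wild type libraries correlated at 0.935 with each other. Wild type library 2 was closer to knockout libraries 1, 4 and 5, at 0.960, 0.970 and 0.972. Their log2 ratios of the 3′ to the 5′ Actb control probe set were 0.79 and 0.89, against 1.46 to 2.08 elsewhere. Fibroblast markers, which feeder cells would bring, summed to 4900 and 4608 in knockout libraries 2 and 3. Col1a2 made up 1519 and 1443 of these. The sums were 1083 to 1383 in the other 3 knockout libraries and 1643 to 1736 in wild type libraries. Dcn had 552.4 and 555.1 in knockout libraries 2 and 3, against 13.4 to 55.6 elsewhere. Postn had 389.4 and 392.0 there, against 11.7 to 91.9 elsewhere. Col1a1, Col1a2, Col3a1, Col6a1, Pdgfra and Loxl1 were also highest in this pair. Not every marker stood high in the pair. Twist2 had 60.5 and 66.6 there, against 95.8 to 210.8 in the rest. Thy1 had 310.1 and 291.6, within its range of 124.0 to 404.6 elsewhere, and Lum was at or under 72.4 in every library. Of the 11 measured fibroblast markers 3 lay above the array median in all libraries, and none was listed at 0. Endoderm markers summed to 4642 and 4768 in knockout libraries 2 and 3, of which Lama1 made up 3162 and 3380. Their sums were 1792 to 2946 in the other 3 knockout libraries and 2071 to 4167 in wild type libraries. Of the 11 endoderm markers 4 lay above the array median in all libraries and none was listed at 0. Afp and Ttr were at or under 31.5 in every library. Dab2 read 309.0 to 869.4 in knockout and 758.6 to 1150 in wild type libraries. Sox17 was lower in knockout without overlap between the groups (-1.20). Cubn and Amn were higher in knockout libraries 2 and 3 than in the other 3, by log2 differences of 1.45 and 0.66. Dab2, Gata6, Gata4 and Sox17 were lower there, at -0.99, -0.50, -0.33 and -0.12. The stem cell factor Pou5f1 had 4891 and 4687 in knockout libraries 2 and 3, against 8770 to 11549 in the other 3 knockout libraries and 11726 and 10184 in wild type libraries. Nanog and Zfp42 were also lower in libraries 2 and 3 than in the other 3 knockout libraries, by a log2 difference of -0.74 and -0.65. So were Esrrb, Sox2, Utf1 and Dppa5a, by -0.43, -0.36, -0.31 and -0.12. The rest of the list went the other way: Tdgf1 (0.45), Klf4 (0.31), Fgf4 (0.22), Dppa4 (0.19) and Tfcp2l1 (0.14) were higher in libraries 2 and 3. The part of these differences in the results below was not tested, and the differences of the members and of the other genes named below are therefore also given for knockout libraries 1, 4 and 5 against wild type. In such bulk samples, fewer cells of a type and less RNA per cell cannot be told apart.

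No TCA cycle enzyme passed the test. Of the 24 probe sets, 23 lay above the filter on low signal and were tested, and 0 had an adjusted p under 0.05 (limma, Benjamini-Hochberg over 27022 probe sets, adjusted p from 0.575 to 0.987). An unadjusted p under 0.05 was found at 1 of them, where 8.42% (2274) of all tested probe sets had one. Leaving out knockout library 4 gave 5 member probe sets, and leaving out any other single library gave 1 or 2. Over the array, 1390 and 1367 probe sets had one when knockout library 2 or 3 was left out. Dropping wild type library 1 gave 746, and dropping wild type library 2 gave 3727. Over the whole array 8 probe sets passed, or 0.0296%. Leaving out knockout library 1, 4 or 5 gave 4, 5 or 5 passing probe sets, and leaving out either wild type library gave 0. In simulated data with these 7 libraries and 27022 probe sets, a log2 change of 1 was called at 2% of the changed probe sets. A change of 2 was called at 54%. The changed probe sets were a small random draw from all those tested, bright and dim together, so these shares are rough for the members. By this measure, differences of the size described below would seldom be called. A missed threshold does not show that the groups were alike, and the differences are given with 95% intervals. Values for all 9 genes appear in the plot of signal by library.

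**Figure D1:**
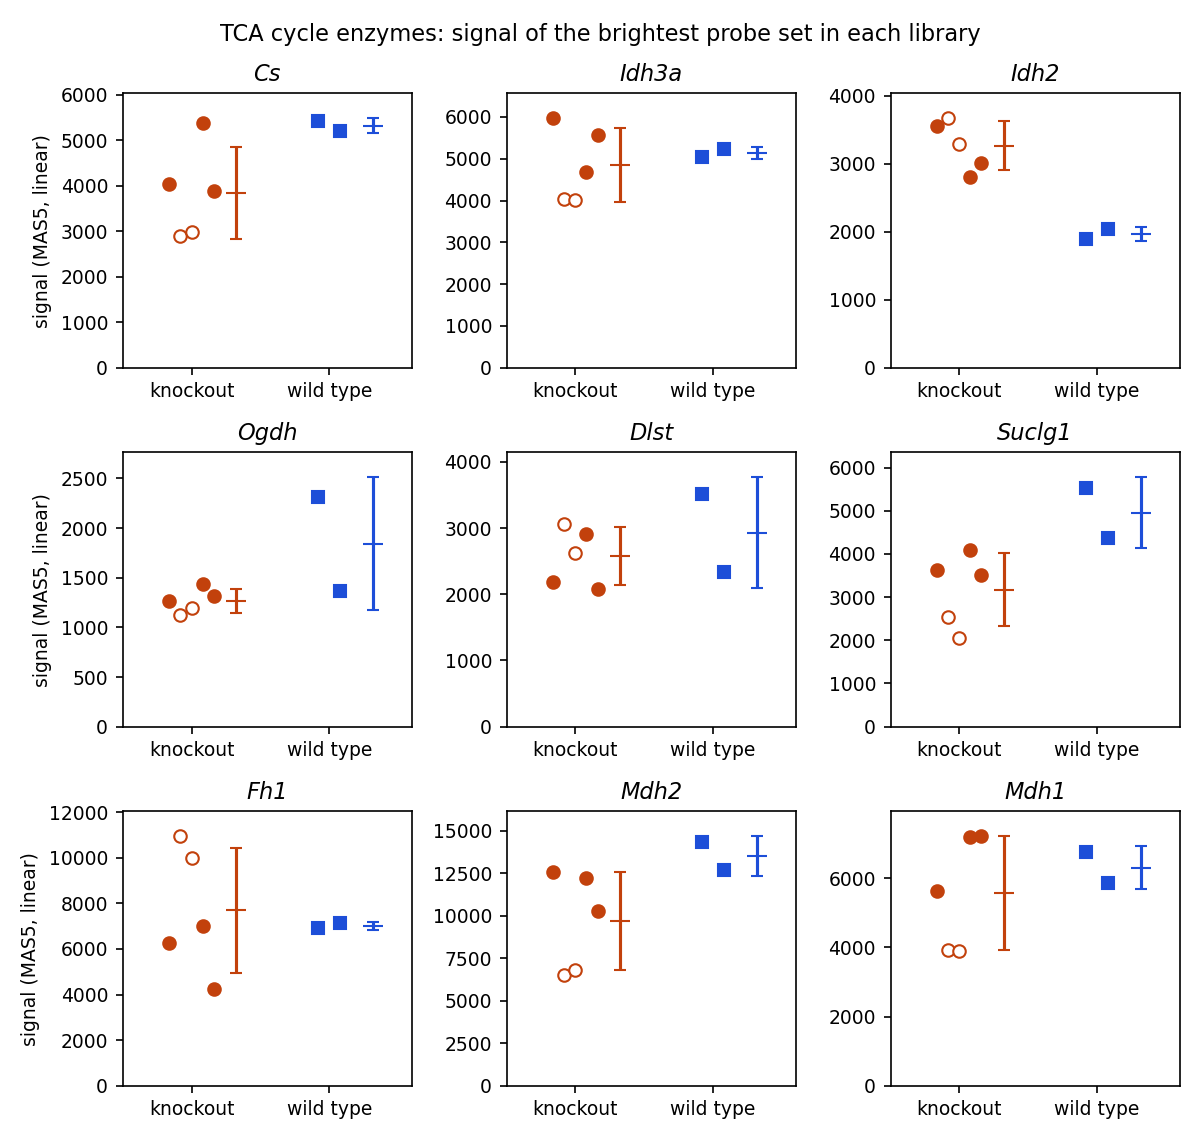
Signal of the brightest probe set of each of the 9 TCA cycle enzymes (MAS5, linear scale from 0), in cycle order. Circles are the 5 knockout libraries, open for libraries 2 and 3; squares are the 2 wild type libraries; the dash and bar beside each group are its mean and SD. Idh2 has every knockout library above both wild type libraries, Suclg1 and Mdh2 have every knockout library below them, and in Fh1 the open circles are the highest points.

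Among the 9 genes, Idh2 stood higher in the knockout libraries without overlap between the groups at its bright probe set. At its dim probe set the groups overlapped. Suclg1 and Mdh2 stood lower, and Cs was lower at 2 of its 3 probe sets, in each case without overlap. The groups did not overlap at 6 of the 23 tested probe sets (26.1%), against 13.6% of all tested probe sets. Knockout was the lower group at 5 of them (21.7%, against 5.85% of all) and the higher group at 1 (7.8% of all). These 5 probe sets belong to only 3 genes, Cs, Suclg1 and Mdh2, and are not independent. With 1 probe set per gene, the brightest, the groups did not overlap at 3 of the 9 genes, against 13.8% of 13120 tested genes (6.41% higher and 7.44% lower in knockout). By the same probe sets 7 of the 9 differences were negative and 2 positive, with a median of -0.23 against a median of -0.00 over all tested genes (log2 differences, knockout minus wild type). Leaving out wild type library 2 moved the members' median to -0.46, and leaving out wild type library 1 moved it to -0.13. With quantile normalization the members' median was -0.11, against -0.09 over all genes. Median centring gave -0.35 against -0.12, and the mean of each gene's probe sets gave -0.17 against 0.03. The distance between members and all genes thus depended on the normalization.

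For the 4 genes with probe sets whose groups did not overlap, the 250 bases before a RefSeq start are shown so that their promoters can be compared (GRCm38.p6, 5′ to 3′ on the gene's strand). Capitals mark CCAAT (the letters bound by NF-Y, either strand) in Idh2 and Cs, and the palindrome TCTCGCGAGA in Mdh2. The Suclg1 stretch holds neither.
Idh2, chr7:80115351-80115600, minus strand: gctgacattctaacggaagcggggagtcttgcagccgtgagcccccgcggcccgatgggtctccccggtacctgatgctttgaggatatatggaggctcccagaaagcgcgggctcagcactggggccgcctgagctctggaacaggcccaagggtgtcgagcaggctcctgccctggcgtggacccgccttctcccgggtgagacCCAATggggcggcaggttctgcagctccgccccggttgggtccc
Cs, chr10:128337477-128337726, plus strand: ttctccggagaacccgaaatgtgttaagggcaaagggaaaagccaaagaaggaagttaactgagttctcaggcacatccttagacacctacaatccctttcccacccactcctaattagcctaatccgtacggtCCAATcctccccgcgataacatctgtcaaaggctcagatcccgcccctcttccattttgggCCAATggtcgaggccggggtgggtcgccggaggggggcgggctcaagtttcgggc
Suclg1, chr6:73248255-73248504, plus strand: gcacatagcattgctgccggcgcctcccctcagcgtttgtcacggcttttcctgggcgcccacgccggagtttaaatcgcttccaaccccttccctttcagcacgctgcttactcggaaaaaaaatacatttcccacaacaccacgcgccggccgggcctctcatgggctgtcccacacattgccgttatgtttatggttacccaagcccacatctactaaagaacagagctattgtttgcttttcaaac
Mdh2, chr5:135778399-135778648, plus strand: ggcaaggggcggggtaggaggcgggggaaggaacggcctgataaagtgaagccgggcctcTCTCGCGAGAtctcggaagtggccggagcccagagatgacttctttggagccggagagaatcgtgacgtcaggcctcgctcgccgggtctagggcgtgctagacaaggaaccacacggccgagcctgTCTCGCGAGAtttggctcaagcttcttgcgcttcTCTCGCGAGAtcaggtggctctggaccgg

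Motifs were searched on both strands of the RefSeq windows from 250 bases before to 50 after a start, which 8 of the 9 genes have, 13 windows in all. The core motif of NRF1, a regulator of mitochondrial genes, was in none of the 13 windows and in 4.6% of all 32851 windows. AAGGTCA, bound by the estrogen-related receptors, was in 1 window of Ogdh and in 4.72% of all windows. CACGTG, the E-box bound by Myc, was in 3 of the 6 windows of Ogdh, of which several cover the same bases, and in 7.15% of all windows. CCAAT, and the 10-base run that equals its own reverse complement and recurs within a window, were added after these sequences had been read. Mdh2 holds TCTCGCGAGA 3 times, at -190, -63 and -29 from the start. Of all windows 0.466% hold it at least once, and 2 windows hold it 3 times or more. CCAAT is in 10 of the 13 member windows, which belong to Cs, Idh2, Fh1, Mdh1 and Ogdh (all 6 of its windows), and in 37.4% of all windows. A match describes letters and not a binding site, and the motifs do not overlap one another in the stretches shown.

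Cs encodes citrate synthase, which joins acetyl-CoA to oxaloacetate and so starts the cycle. Its brightest probe set, 1450667_a_at, had signals of 4045, 2901, 2987, 5382 and 3891 in knockout libraries 1 to 5, against 5435 and 5207 in wild type libraries. Knockout library 4 lay between the wild type libraries and the other 4 lay below both. The difference was -0.50 on the log2 scale (95% interval -1.15 to 0.14). At 1422578_at the signals were 4189, 2436, 2630, 4157 and 3764 in knockout libraries, against 5923 and 4399 in wild type libraries. At 1422577_at they were 2028, 1672, 1545, 1981 and 2054, against 2676 and 2316. All 5 knockout libraries were below both wild type libraries at these 2 probe sets, with differences of -0.61 (-1.29 to 0.08) and -0.43. Knockout libraries 2 and 3 were the lowest at each of the 3 probe sets. The other 3 knockout libraries differed from wild type by -0.28, -0.34 and -0.30.

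Isocitrate is oxidised in the mitochondrion by an NAD-dependent enzyme, whose catalytic subunit is encoded by Idh3a, and by an NADP-dependent enzyme encoded by Idh2, which can also run in reverse. Idh2 was the member whose groups lay furthest apart relative to their spread. Its bright probe set 1450048_a_at had signals of 3552, 3667, 3297, 2805 and 3018 in knockout libraries, against 1888 and 2036 in wild type libraries. Every knockout library was above both wild type libraries, with means of 3268 ± 359.8 (SD, n = 5) in knockout and 1962 ± 105.4 (SD, n = 2) in wild type, a ratio of 1.67. The difference was 0.72 (95% interval 0.19 to 1.26, limma adjusted p = 0.575). In knockout libraries 1, 4 and 5 alone it was 0.66. The dim probe set 1453601_at pointed the same way, with 172.9, 245.4, 294.1, 112.5 and 111.0 in knockout libraries, against 115.8 and 58.6 in wild type libraries. There knockout libraries 4 and 5 lay between the wild type libraries, and the difference was 0.91 (-0.01 to 1.83), or 0.53 in knockout libraries 1, 4 and 5 alone.

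Idh3a did not share this pattern. Its brightest probe set had signals of 5965, 4033, 4004, 4681 and 5571 in knockout libraries, against 5037 and 5235 in wild type libraries. Knockout libraries 1 and 5 were above both wild type libraries and the other 3 below, and the difference was -0.10 (95% interval -0.66 to 0.46), or 0.07 in knockout libraries 1, 4 and 5 alone. Its other 3 probe sets had overlapping groups too, with differences from -0.25 to 0.06 (-0.03 to 0.13 in those 3 libraries). Of these, 1422501_s_at and 1447701_x_at belong to classes of probe set that can also bind related transcripts. The within-array log2 ratio of Idh2 to Idh3a was -0.74, -0.14, -0.28, -0.73 and -0.88 in knockout libraries, against -1.41 and -1.35 in wild type libraries. It was higher in all 5 knockout libraries, by 0.83 on average (exact permutation test, two-sided, p = 0.0476, the smallest that 21 splits allow; adjusted p = 0.143 over 3 such ratios). With an adjustment over 3 ratios, a lone ratio at this smallest p could not pass. In knockout libraries 1, 4 and 5 alone the difference was 0.59 (exact permutation adjusted p = 0.3). Only 10 splits remain there, and a lone ratio could not reach a lower adjusted p.

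Ogdh and Dlst encode the first and second subunits of the alpha-ketoglutarate dehydrogenase complex, which makes succinyl-CoA and is among the calcium-activated enzymes. Ogdh had signals of 1268, 1124, 1192, 1436 and 1318 in knockout libraries, against 2314 and 1367 in wild type libraries, with its brightest probe set. The wild type libraries differed more from each other than any knockout libraries did, and knockout library 4 lay above wild type library 2. The difference of -0.49 (95% interval -1.13 to 0.15) became -0.11 without wild type library 1 and -0.86 without wild type library 2, and was -0.40 in knockout libraries 1, 4 and 5 alone. Dlst had signals of 2188, 3065, 2631, 2914 and 2081, against 3522 and 2342 in wild type libraries. The groups overlapped, with a difference of -0.17 (-0.81 to 0.46), which turned to 0.12 without wild type library 1 and was -0.28 in knockout libraries 1, 4 and 5 alone. The other 3 Dlst probe sets differed by -0.12 to 0.18 (-0.36 to -0.05 in those 3 libraries), and the other Ogdh probe set by -0.25 (-0.02). The log2 ratio of Dlst to Ogdh was 0.78, 1.43, 1.13, 1.01 and 0.65 in knockout libraries, against 0.60 and 0.77 in wild type libraries, which overlapped (difference 0.32, exact permutation adjusted p = 0.286; 0.13 in knockout libraries 1, 4 and 5 alone).

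Suclg1 encodes the alpha subunit of succinyl-CoA ligase, the step that yields a nucleoside triphosphate directly. Its only probe set had signals of 3634, 2535, 2064, 4102 and 3515 in knockout libraries, against 5532 and 4376 in wild type libraries. All 5 knockout libraries were below both wild type libraries, with means of 3170 ± 841.1 (SD, n = 5) in knockout and 4954 ± 817.6 (SD, n = 2) in wild type, a ratio of 0.64. The difference was -0.68 (95% interval -1.38 to 0.03, limma adjusted p = 0.575). In knockout libraries 1, 4 and 5 alone it was -0.39, and the 2 lowest signals were those of knockout libraries 2 and 3.

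Fh1 encodes fumarase, which hydrates fumarate to malate in the mitochondrion and also acts in the cytosol. It had signals of 6276, 10938, 9978, 7008 and 4238 in knockout libraries, against 6901 and 7148 in wild type libraries. Knockout libraries 2 and 3 were above both wild type libraries, 1 and 5 below both, and 4 between them. The difference over all libraries was 0.05 (95% interval -0.74 to 0.84), and it turned to -0.30 in knockout libraries 1, 4 and 5 alone. Fh1 thus stood high in the same 2 libraries in which Cs, Suclg1 and Mdh2 stood lowest.

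Malate is oxidised to oxaloacetate by Mdh2 in the mitochondrial matrix and by Mdh1 in the cytosol, and both enzymes serve the malate-aspartate shuttle. Mdh2 had signals of 12600, 6527, 6800, 12220 and 10308 in knockout libraries, against 14331 and 12700 in wild type libraries, at its brightest probe set 1433984_a_at. Its other probe set, 1416478_a_at, had 11071, 5236, 4545, 11337 and 7467, against 14680 and 11504. The groups did not overlap at either, but knockout libraries 1 and 4 came close to wild type library 2. The differences were -0.53 (95% interval -1.22 to 0.15) and -0.81 (-1.66 to 0.04). In knockout libraries 1, 4 and 5 alone they were -0.21 and -0.41, so most of the distance lay in libraries 2 and 3.

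Mdh1 had 3 bright and 2 dim probe sets, and its groups overlapped at each. The brightest, 1436834_x_at, had signals of 5621, 3932, 3894, 7183 and 7214 in knockout libraries, against 6754 and 5874 in wild type libraries. Knockout libraries 4 and 5 were above both wild type libraries and the other 3 below both. Probe set 1448172_at had 5613, 2317, 2235, 6193 and 4843 in knockout libraries, against 5289 and 6532 in wild type libraries. The differences were -0.23 (95% interval -0.93 to 0.47) and -0.60 (-1.59 to 0.39), and both were near 0 in knockout libraries 1, 4 and 5 alone, at 0.07 and -0.09. The third bright probe set, 1454925_x_at, differed by -0.14, and the dim 1438338_at by 0.28 (0.22 and 0.18 in those 3 libraries). Of the bright ones 2 are of the class that can also bind related transcripts. The fifth, 1434319_at, lay under the signal filter and was not tested (28.4 to 68.3 in knockout libraries, against 151.9 and 31.1 in wild type libraries). The log2 ratio of Mdh2 to Mdh1 was 1.16, 0.73, 0.80, 0.76 and 0.51 in knockout libraries, against 1.08 and 1.11 in wild type libraries. Knockout library 1 was above both wild type libraries and the other 4 below (difference -0.30, exact permutation adjusted p = 0.286, or a difference of -0.28 in knockout libraries 1, 4 and 5 alone). For Mdh1 this ratio used 1436834_x_at only. The difference at 1448172_at (-0.60) was below that of the Mdh2 probe set used (-0.53), so the direction depends on the Mdh1 probe set.

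**Figure D2:**
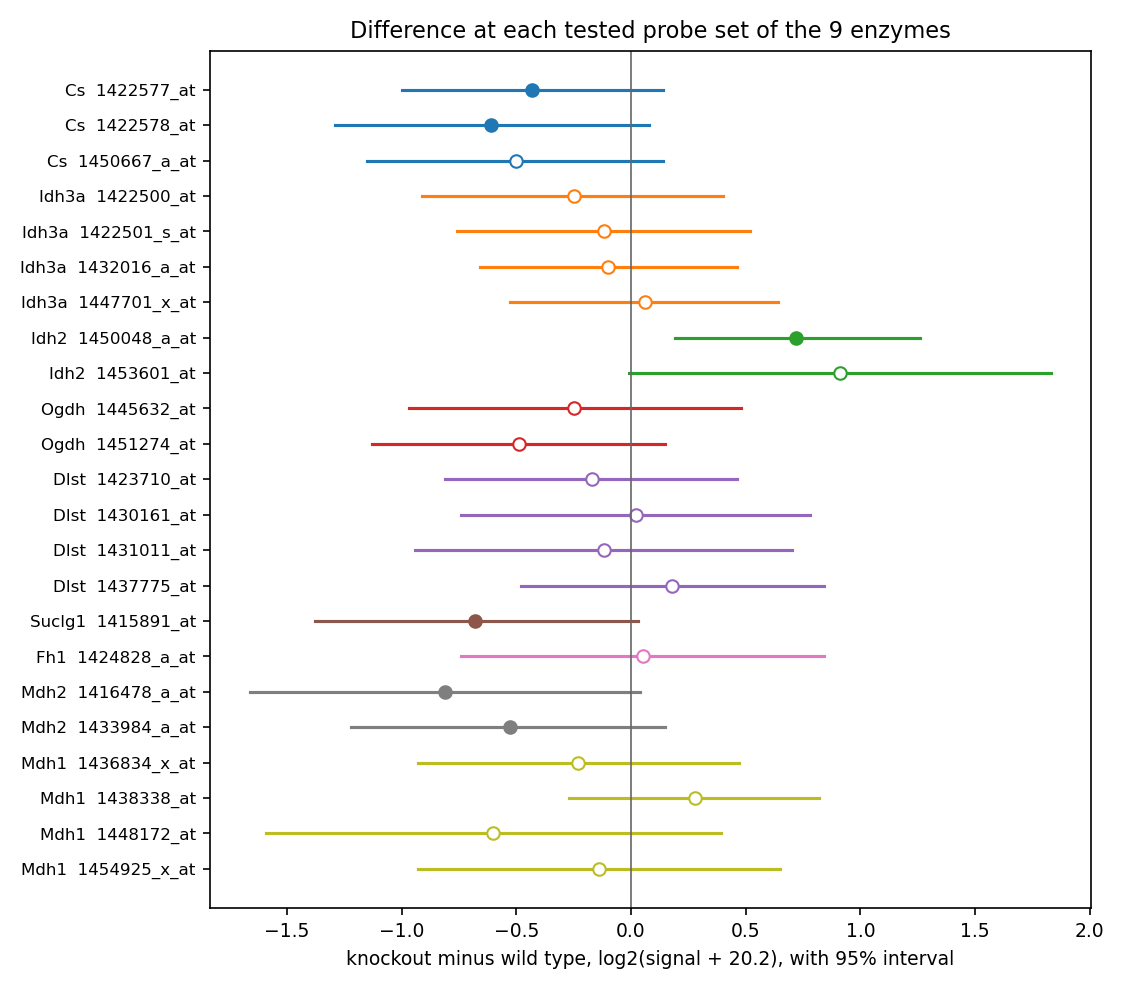
Difference between knockout and wild type libraries at the 23 tested probe sets of the 9 enzymes, in log2(signal + 20.2), with 95% intervals from limma that are not adjusted for multiple testing. Filled points mark probe sets whose groups did not overlap; colours mark genes. The interval of 1 probe set, 1450048_a_at of Idh2 (0.19 to 1.26), does not reach 0, and the other 22 do.

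Another 9 genes for subunits of the cycle were read in the same way, with 1 probe set per gene. None passed the test, which 0.0152% of all tested genes did; 7 differences were negative and 2 positive, and the median was -0.20. The groups did not overlap at 3 genes, all lower in knockout: Idh3b, Idh3g and Sdhd (7.44% of all tested genes were lower without overlap). Sdhd, a membrane anchor of succinate dehydrogenase, had signals of 3614, 3723, 2600, 3148 and 2964 in knockout libraries, against 5087 and 4129 in wild type libraries (difference -0.52, and -0.50 in knockout libraries 1, 4 and 5 alone). Idh3b and Idh3g, the regulatory subunits of the NAD-dependent isocitrate dehydrogenase, differed by -0.18 and -0.20 (-0.14 and -0.10 in those 3 libraries). Sdhc, the other anchor, had 1429 and 1294 in knockout libraries 2 and 3, where the other 3 knockout libraries stood at 3682, 2857 and 3021 and wild type libraries at 3577 and 2764. Its difference was -0.47, and 0.01 in knockout libraries 1, 4 and 5 alone. The catalytic subunit Sdha (-0.06, and -0.13 in those 3 libraries) and the iron-sulfur subunit Sdhb (-0.28 and -0.21) had overlapping groups. So had the succinyl-CoA ligase subunits Suclg2 (-0.39, and -0.21 in those 3 libraries) and Sucla2 (0.28 and 0.54). Sucla2 stood at 1754 and 4116 in the wild type libraries, a range that held all 5 knockout libraries. Dld, the shared lipoamide dehydrogenase of several complexes, had a difference of 0.44 with overlapping groups (0.41 in those 3 libraries).

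**Figure D3:**
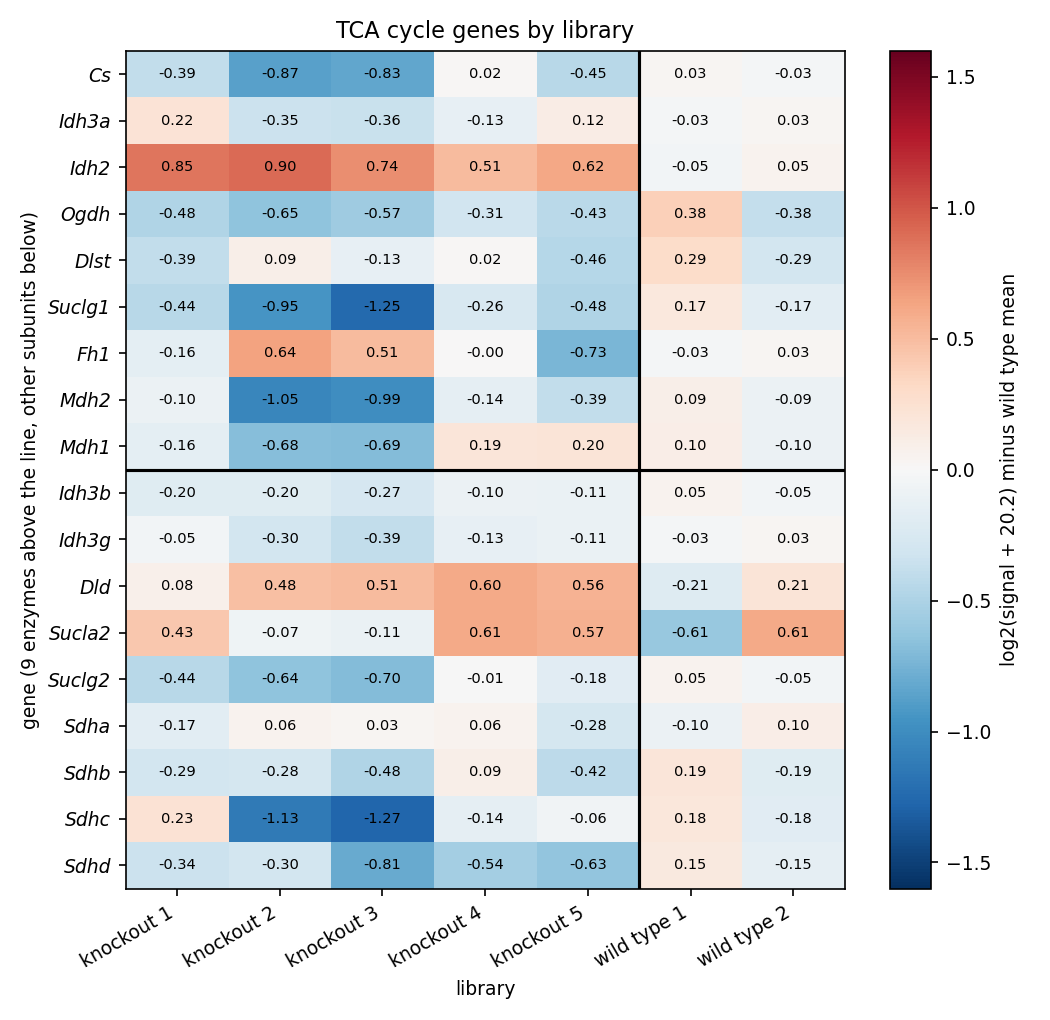
Each cell is the log2(signal + 20.2) of a gene in a library minus its wild type mean, for the 9 enzymes above the line and the other 9 measured subunits below it; knockout libraries are left of the vertical line. Idh2 is positive in all 5 knockout libraries (0.51 to 0.90). Suclg1, Mdh2 and Sdhc are near -1 or lower in knockout libraries 2 and 3, and Fh1 is positive in those 2 libraries (0.64 and 0.51).

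Of the genes that bring pyruvate into the cycle and regulate its entry, 12 of 13 were measured and 0 passed the test, with 8 positive and 4 negative differences and a median of 0.13. Pdk4, a kinase that inactivates pyruvate dehydrogenase, had signals of 280.5, 262.2, 215.7, 248.5 and 287.8 in knockout libraries, against 114.2 and 202.6 in wild type libraries (difference 0.68, limma adjusted p = 0.589; 0.75 in knockout libraries 1, 4 and 5 alone). Pdp2, a phosphatase that reactivates the complex, had 319.8, 278.9, 249.5, 255.0 and 264.8 in knockout libraries, against 372.0 and 332.2 in wild type libraries (-0.34, limma adjusted p = 0.605; -0.32 in those 3 libraries). The groups did not overlap at these 2 of the 12 genes, a share near the 13.8% of all tested genes. Of the linked cytosolic and anaplerotic enzymes 10 of 12 were measured and 0 passed, with 2 positive and 8 negative differences and a median of -0.29. The groups did not overlap at 1 of the 10, Acly, which cleaves exported citrate to acetyl-CoA for lipid synthesis; 13.8% of all tested genes had none and 7.44% were lower without overlap, so this share is near the background. Its signals were 8016, 3414, 3305, 8764 and 7962 in knockout libraries, against 9538 and 9112 in wild type libraries (-0.69, limma adjusted p = 0.596; -0.18 in knockout libraries 1, 4 and 5 alone). Knockout libraries 2 and 3 were again far below the rest.

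Across libraries the members' median, measured from the wild type mean, was lowest in knockout libraries 2 and 3, at -0.65 and -0.57. Knockout libraries 1, 4 and 5 stood at -0.16, -0.00 and -0.43. Wild type libraries 1 and 2 stood at 0.09 and -0.09. The linked cytosolic and anaplerotic enzymes stood beside the members in knockout libraries 2 and 3, at -0.66 and -0.68. There the other TCA cycle subunits stood at -0.28 and -0.39, and the genes of pyruvate entry at 0.13 and 0.09. The glycolytic enzymes lay lower in the same 2 libraries, at -0.97 and -1.16, against -0.10, -0.23 and -0.58 in knockout libraries 1, 4 and 5. Their median difference was -0.64, with 12 of 13 measured genes negative. The respiratory chain subunits stood at -0.10 and -0.19 in libraries 2 and 3 and had a median difference of -0.14, with 27 of 36 negative. In neither list did a gene pass the test, and the differences between the lists were not tested.

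**Figure D4:**
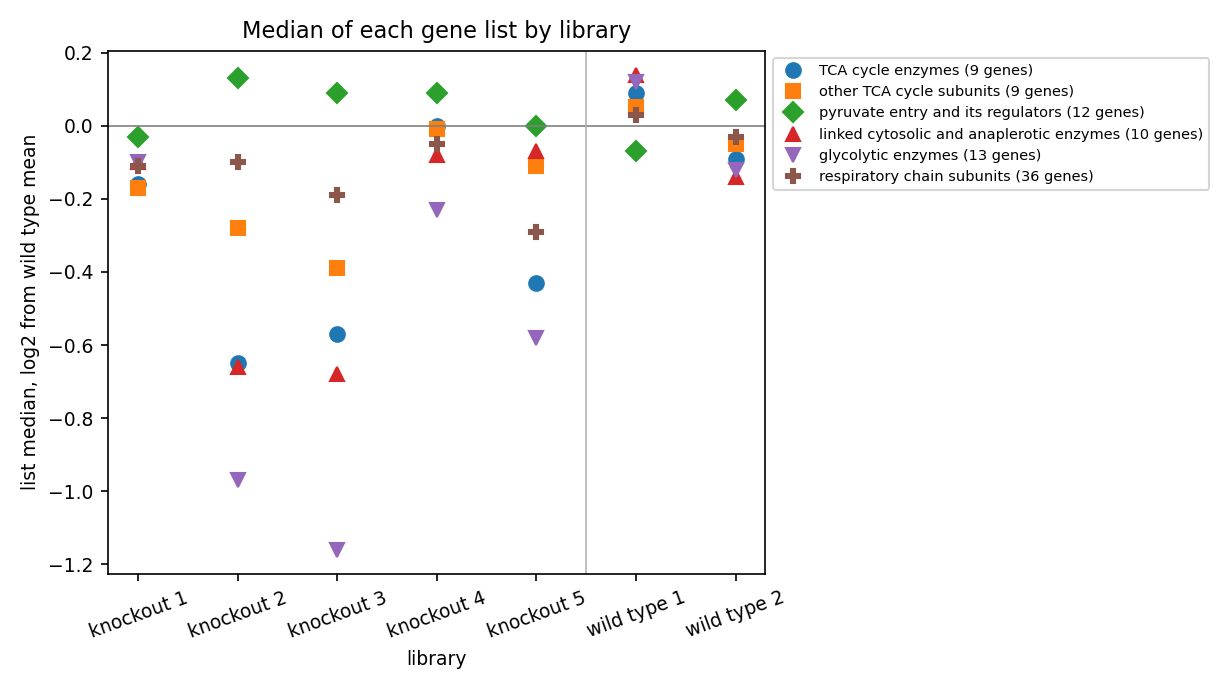
Median over each gene list of log2(signal + 20.2) minus the wild type mean, in each library, with the number of measured genes in the legend. In knockout libraries 2 and 3 the TCA cycle enzymes (-0.65 and -0.57) lie above the glycolytic enzymes (-0.97 and -1.16) and below the respiratory chain subunits (-0.10 and -0.19). The linked cytosolic and anaplerotic enzymes (-0.66 and -0.68) lie beside them, and the other TCA cycle subunits higher (-0.28 and -0.39).

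The members varied among themselves. Around the mean profile of the 9, which ran from -0.24 in knockout library 3 to 0.26 in wild type library 1 on the log2 scale, the root mean square distance over the 7 libraries was 0.18 for Idh3a, 0.20 for Ogdh and 0.22 for Cs. It was 0.50 for Fh1 and 0.48 for Idh2, the 2 members whose profiles departed most from it. Outside the gene lists, the 5 genes closest to that mean profile were Dnttip1, Gucd1, Cdca8, Slc25a4 and Rnaseh2a, at distances of 0.044, 0.044, 0.052, 0.059 and 0.061. Slc25a4, the mitochondrial ADP/ATP carrier, had signals of 9472, 8146, 7494, 10218 and 8405 in knockout libraries, against 9803 and 9501 in wild type libraries. All 5 had overlapping groups, with differences from -0.32 to -0.15 (-0.22 to -0.05 in knockout libraries 1, 4 and 5 alone). They were picked for closeness to the mean profile over these same libraries, so differences near that profile's own follow from the choice.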

How the data were processed

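Per the submitters' processing notes the deposited intensities, 1 signal per probe set and array, were made by the authors with MAS5 (no version given). Trimmed of 2% at each end, the mean signal was 500.0 on all arrays; array medians ran from 92.6 to 124.9, so no further normalization was applied. No detection calls were used. Signals became log2(signal + 20.2), the 20th percentile of all values; 27022 probe sets with a mean above the 40th percentile were tested with limma 3.58.1 in R 4.3.3 (lmFit, eBayes with a trend, two-sided, Benjamini-Hochberg, 0.05), and 13120 genes by their brightest single-symbol probe set. Symbols come from the platform annotation, updated by gene identifier through RefSeq (GRCm38.p6, 34741 probe sets matched). The number of arrays limits the precision. Within-array ratios were compared by exact permutation over 21 splits.

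Members, lists and tests were chosen with earlier results of these data known. Named were Calr, all members and other cycle subunits, up to 4 non-overlapping genes with the largest differences from the 2 linked lists, and the 5 genes closest to the members' mean profile. The fit was tested on simulated data with independent noise (4 false calls). Alternatives were 2 normalizations, 2 pseudocounts, 2 filters, variance without a trend, array weights, the replicate number as a block, mean probe sets, and leaving out libraries. Figures were drawn with matplotlib 3.10.9.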

Additional observations from a re-analysis of the deposited data

How the results depend on the processing

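No member probe set was called under any alternative run. Leaving out 1 library gave 0 to 7 called probe sets, 0 to 2 called genes, -3.78 to -3.52 for Calr, -0.46 to 0.12 for Dlst and -0.10 to 0.24 for Fh1. For Calr the call was lost in both fits with a lone wild type library, which is assumed to vary like the knockout libraries. The 8 called probe sets became 5 with no filter, 4 with the filter at the 60th percentile and 5 without knockout libraries 2 and 3 together; the 2 called genes became 1 in each of these 3 fits and 7 with those libraries as a batch term. With the replicate number as a block, which leaves 1 residual degree of freedom, 15 probe sets and 42 genes were called; same-numbered libraries' deviations correlated at 0.11 and -0.01, and the samples share only a number. Cs, Idh2, Ogdh, Suclg1 and Mdh2 kept their direction in all 19 alternatives (Idh2 from 0.61 to 0.87, Ogdh from -0.86 to -0.11). Idh3a turned positive with quantile normalization (0.01), array weights (0.02) and without knockout libraries 2 and 3 or with them as a batch term (0.07 in each). Mdh1 did so in the last 2 fits (0.07 in each), and Fh1 turned negative in these (-0.30 in each), with median centring (-0.07) and with array weights (-0.24). Median centring moved the median of all genes by -0.12. The causes were not tested.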
